A study of Saccharomyces cerevisiae with 12 samples.

Results

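The genes described here are the 10 best-known mating-type genes of the budding yeast *Saccharomyces cerevisiae*: the pheromone genes MF(ALPHA)1, MF(ALPHA)2, MFA1 and MFA2, the pheromone receptor genes STE2 and STE3, the agglutinin genes SAG1 and AGA2, the protease gene BAR1 and the endonuclease gene HO. They were chosen by name, and all 10 were found among the 6347 features of the deposited mRNA table. Every library came from the laboratory strain D452-2 in mid-exponential growth, carrying the plasmid pRS316 with cdt-1, a cellodextrin transporter gene of *Neurospora crassa* with a C-terminal GFP tag per the file headers. The strain called NC carried cdt-1 with its endogenous codons, and the strain called OPT carried the codon-optimized version, so both hold the plasmid and differ by the codons of the transgene. The 6 mRNA libraries, 3 of NC and 3 of OPT, were compared, while the 6 ribosome footprint libraries were not analysed here. The design text calls them biological replicates. The sources used here do not say whether each strain is a single transformant.

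Haploid yeast cells are of mating type a or alpha, and each type makes the pheromone that the other type senses. Alpha cells secrete alpha-factor and carry Ste3, the receptor for a-factor, whereas a cells secrete the lipid-modified a-factor and carry Ste2, the receptor for alpha-factor. In alpha cells the protein alpha1, acting with Mcm1, turns on the alpha-specific genes, and alpha2, also with Mcm1, turns off the a-specific genes. A cell that senses pheromone signals through a G protein and a kinase cascade to the transcription factor Ste12, arrests its cycle and prepares to fuse.

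Levels were given as normalized RPKM (read density scaled by gene length and library size). Comparisons between genes below rest on that scaling by length, while the counting and normalization are not given. Whether the scaling holds for genes as short as MFA1 and MFA2 (111 and 117 nucleotides) was not tested. By the steps of the low values, reads in features with a RefSeq length were estimated for each library. NC replicates 1, 2 and 3 held 30500000, 23400000 and 26000000, and OPT replicates 1, 2 and 3 held 43200000, 33900000 and 33400000. Every OPT library was thus deeper than every NC library, so depth and strain cannot be told apart. The read numbers given for single genes below are estimates of the same kind. In the fit over all features, leaving out NC replicate 3 raised the number of features that differed between the strains from 1145 to 1956, whereas leaving out OPT replicate 1, 2 or 3 lowered it to 483, 361 and 524. NC replicate 3 also stood apart in several of the genes below, and its values are given with each.

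In every library each of the 4 alpha-specific genes stood above each of the 5 a-specific genes, although MF(ALPHA)2 ranked only at place 3624 of 6347 features by mean level. The summed level of the 4 alpha-specific genes was 3856, 3539.8 and 4203 RPKM in NC replicates 1, 2 and 3 and 1950.0, 1924 and 1918 RPKM in OPT replicates 1, 2 and 3. The 5 a-specific genes together stood at 42.3, 36.2 and 37.1 RPKM in NC and at 50.3, 46.3 and 48.2 RPKM in OPT. The alpha-specific genes thus made up 98.9, 99.0 and 99.1% of the sum of both groups in NC and 97.5, 97.7 and 97.6% in OPT. D452-2 is known as a strain of the alpha mating type, and in both strains the levels went with that type. None of the a-specific genes was at 0.

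MF(ALPHA)1 carried most of that alpha-specific sum, 91.7 to 93.3% in NC and 89.1 to 90.8% in OPT. Without it the alpha-specific share was 86.3, 86.8 and 90.4% in NC, against 78.0, 80.7 and 81.3% in OPT. The shares were lower in all 3 OPT libraries on either reckoning. They are sums over the genes and were not tested, and the genes that passed the test singly are given below. In bulk RNA, fewer cells of a type and less RNA per cell cannot be told apart.

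**Figure D1:**
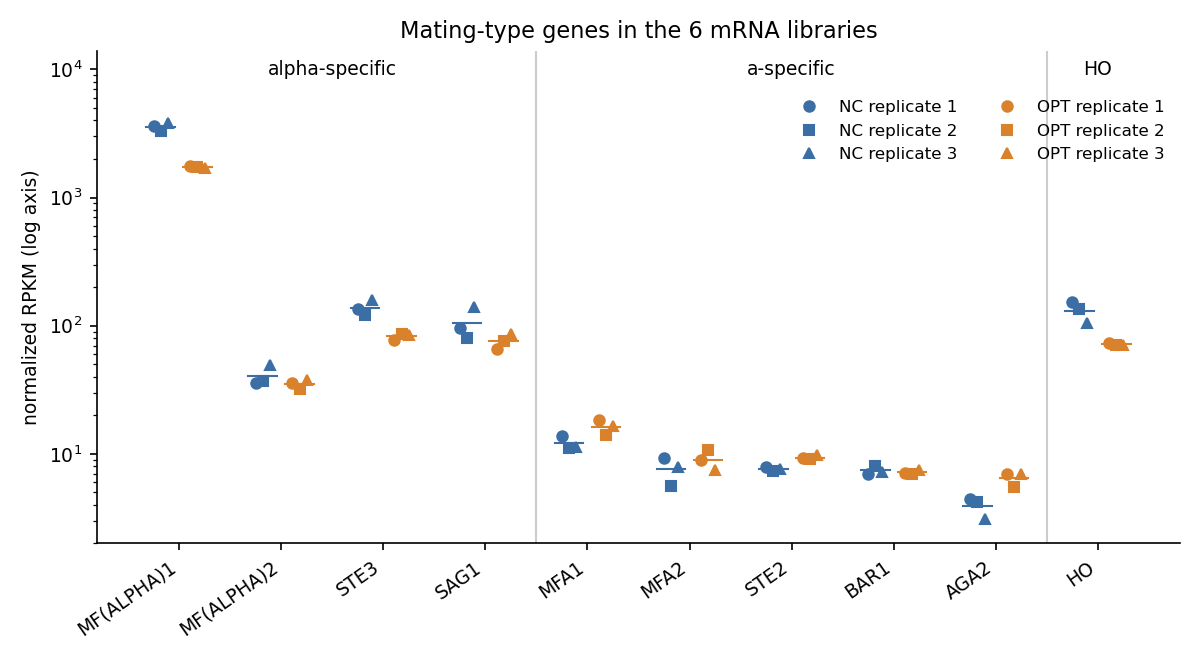
Normalized RPKM of the 10 genes in each of the 6 mRNA libraries, on a log axis. Points are libraries (blue NC, orange OPT, with a symbol for each replicate), short lines are means of 3 libraries, and the alpha-specific genes and HO stand above the 5 a-specific genes in all 6 libraries, with MF(ALPHA)2 the nearest to them.

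Genes of the mating-type locus itself were also measured. MATALPHA1, which encodes the activator alpha1, stood at 47.3 ± 2.49 RPKM in NC and 39.8 ± 2.36 RPKM in OPT (SD, n = 3), and MATALPHA2, which encodes the repressor alpha2, at 103 ± 6.97 and 99.7 ± 5.41 RPKM. HMRA1, the silent copy of the a1 gene, was listed at 0 in 3 libraries and at up to 0.17 RPKM in the others. The row of HMRA2, annotated as the silent copy of the a2 gene, stood at 109 ± 5.84 RPKM in NC and 104 ± 7.40 RPKM in OPT. It lay close to MATALPHA2 in every library. In NC replicates 1, 2 and 3 it was at 104.6, 115.55 and 106.56 RPKM, beside 99.95, 111.11 and 98.29 RPKM. In OPT replicates 1, 2 and 3 it was at 112.41, 98.49 and 101.09 RPKM, beside 105.74, 95.27 and 98.15 RPKM. Whether this row holds reads of MATALPHA2 was not tested, so it does not show that the silent copy was expressed. MATALPHA1 and MATALPHA2 have copies at the silent cassette HML, whose rows stood at nearly the same levels (47.0 and 41.9 RPKM for HMLALPHA1, 100.1 and 97.3 RPKM for HMLALPHA2). Reads of the copies cannot be told apart, and the MAT rows also overlap other annotated genes, so these values are uncertain.

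Between the strains, 3 of the 10 genes fell in OPT, namely MF(ALPHA)1, STE3 and HO, and AGA2 rose. Over all 5982 yeast features tested with limma, 19.1% passed at an adjusted p under 0.05, with 13.8% lower and 5.38% higher in OPT. The count of 4 in 10 stands beside that background of 19.1%, and in so short a list it is a description only. All 10 genes passed the filter at a mean of 1 RPKM. The split of calls over all features depended on the scale, with 322 higher and 823 lower as deposited, 420 and 602 with quantile normalization, and 471 and 491 with library medians set equal. On the last scale the 10 genes gave 3 falls and 3 rises, because STE2 and MFA1 passed as well. The median log2 difference of all features was -0.06 on the deposited scale.

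**Figure D2:**
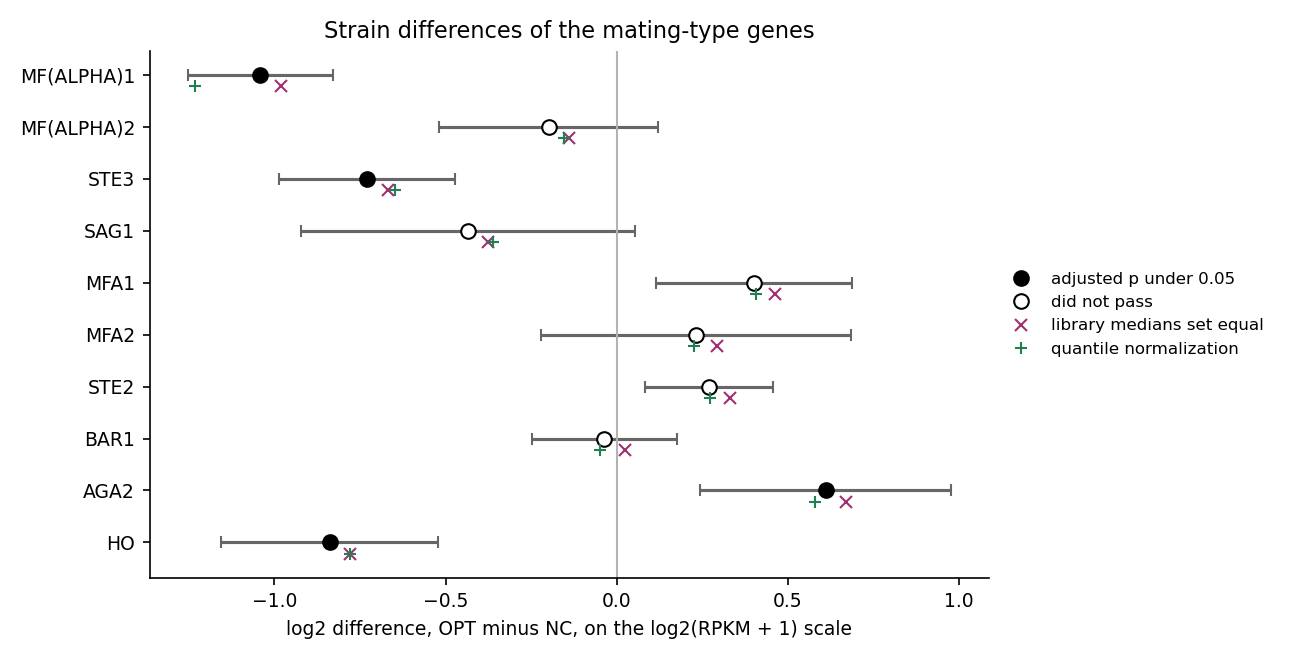
Log2 difference between the strains (OPT minus NC, on the log2(RPKM + 1) scale) for each gene, with bars for the 95% confidence interval of the limma fit; filled points passed at an adjusted p under 0.05. Crosses and plus signs give the value with library medians set equal and with quantile normalization, and among these genes the sign changes with the scale in BAR1 alone.

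MF(ALPHA)1 encodes the main precursor of alpha-factor, a chain of pheromone repeats that the secretory pathway cuts into the mature peptide. The gene lies on chromosome XVI at 193648 to 194145 in build R64, with a coding length of 498 nucleotides. Its level was 3589, 3301 and 3854 RPKM in NC replicates 1, 2 and 3 and 1771, 1730.3 and 1709 RPKM in OPT replicates 1, 2 and 3. The groups did not overlap, and the lowest NC library stood far above the highest OPT library, while the 3 OPT libraries lay close together. Non-overlap by itself was common, since 40.7% of all tested features had groups that did not overlap, 27.6% with OPT lower and 13.1% with OPT higher.

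The mean of MF(ALPHA)1 was 3581 ± 277 RPKM in NC and 1737 ± 31.8 RPKM in OPT (SD, n = 3), so OPT held 48.5% of the NC level. The log2 difference was -1.04 with a standard error (SE) of 0.09 (95% interval -1.25 to -0.83, limma adjusted p = 0.00103). Only 21 of the 5982 tested features, or 0.351%, had a fall of that size or larger. The two-sided exact permutation test of the 6 RPKM values gave p = 0.1, the smallest p that 3 against 3 can give. By mean level this gene ranked at place 40 of the 6347 features, and its values rest on an estimated 29371 to 56260 reads per library. Of the RPKM of a whole library, the gene took 0.359, 0.33 and 0.386% in the NC replicates, against 0.177, 0.173 and 0.171% in the OPT replicates.

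MF(ALPHA)2 encodes the minor alpha-factor precursor and lies on chromosome VII at 344791 to 345153. It stood at 35.5, 37.1 and 49.6 RPKM in NC and at 35.45, 31.9 and 37.9 RPKM in OPT. The groups overlapped, and NC replicate 3 was the highest library. The log2 difference was -0.20 with a 95% interval of -0.52 to 0.12, which did not pass (limma adjusted p = 0.342), and it was -0.05 without NC replicate 3. The interval lies wholly above the value of MF(ALPHA)1. The ratio of MF(ALPHA)1 to MF(ALPHA)2 was 101, 88.9 and 77.6 in NC against 50.0, 54.2 and 45.1 in OPT, so the major gene was far more abundant in every library and the ratio was lower in all 3 OPT libraries. Both genes encode closely related precursors, and the sources used here do not say how reads of shared sequence were counted.

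STE3 encodes the a-factor receptor, a membrane protein with multiple spans, and lies on chromosome XI at 113215 to 114627. Its level was 135, 121 and 159 RPKM in NC replicates 1, 2 and 3 and 77.3, 85.9 and 84.7 RPKM in OPT replicates 1, 2 and 3. The groups did not overlap, and NC replicate 3 was again the highest. The gene fell from 138 ± 19.1 to 82.6 ± 4.67 RPKM (SD, n = 3), to 59.8% of the NC level, with a log2 difference of -0.73 and an SE of 0.11 (limma adjusted p = 0.00724). The difference was -0.63 without NC replicate 3 and still passed.

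SAG1 encodes alpha-agglutinin, the cell wall protein by which alpha cells stick to a cells, and lies on chromosome X at 442909 to 444861. It stood at 96.3, 80.7 and 140.5 RPKM in NC replicates 1, 2 and 3 and at 66.1, 76.2 and 86.65 RPKM in OPT replicates 1, 2 and 3. The groups overlapped, with OPT replicate 3 above NC replicate 2, and NC replicate 3 stood far above the rest. The log2 difference was -0.44 with a 95% interval of -0.92 to 0.05 (limma adjusted p = 0.182), and it was -0.21 without NC replicate 3. All 4 alpha-specific genes had their highest level in NC replicate 3, and all 4 had a lower mean in OPT, of which 2 passed the test.

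The a-specific genes lay at the low end of the table. Of the 5, MFA1 ranked at place 5329 of 6347 by mean level, STE2 at 5607, MFA2 at 5618, BAR1 at 5654 and AGA2 at 5734. Their order by mean RPKM was MFA1 at 14.2, STE2 at 8.46, MFA2 at 8.29, BAR1 at 7.31 and AGA2 at 5.19 RPKM. STE2, MFA2 and BAR1 overlapped in their libraries, so their order is not resolved by these data.

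AGA2 encodes the adhesion subunit of a-agglutinin, which binds alpha-agglutinin on the partner cell, and lies on chromosome VII at 436570 to 436833. Its level was 4.45, 4.2 and 3.08 RPKM in NC replicates 1, 2 and 3 and 6.9, 5.49 and 7.02 RPKM in OPT replicates 1, 2 and 3. The groups did not overlap, and NC replicate 3 was the lowest library, the reverse of its place in the alpha-specific genes. The gene rose from 3.91 ± 0.73 to 6.47 ± 0.851 RPKM (SD, n = 3), a log2 difference of 0.61 with an SE of 0.15 (limma adjusted p = 0.0363). This scale understates the change of so low a gene, and with a pseudocount of 0.1 the difference was 0.72. The values rest on an estimated 22 to 82 reads per library over a coding length of 264 nucleotides. The call ended without NC replicate 2 (adjusted p = 0.0651) and without OPT replicate 1, 2 or 3 (adjusted p = 0.13, 0.0668 and 0.123).

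STE2, the gene for the alpha-factor receptor on chromosome VI at 82580 to 83875, stood at 7.87, 7.29 and 7.58 RPKM in NC and at 9.22, 9.05 and 9.76 RPKM in OPT. The groups did not overlap and the libraries of each strain lay close together, on an estimated 230 to 538 reads. The log2 difference was 0.27 with a 95% interval of 0.08 to 0.46, just short of the threshold (limma adjusted p = 0.0563). It passed without NC replicate 3 (0.0452), with library medians set equal (0.034) and without a filter on low values (0.0205). The same held with a common prior variance (0.0309) and with arrayWeights (0.0363). In the other 7 of 12 alternatives STE2 did not pass (limma adjusted p up to 0.185). The ratio of STE3 to STE2, the receptors of the opposite types, was 17.2, 16.6 and 20.9 in NC against 8.38, 9.49 and 8.68 in OPT.

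MFA1 and MFA2 encode precursors of a-factor, a short lipopeptide, and have coding lengths of 111 and 117 nucleotides. MFA1, on chromosome IV at 1385176 to 1385286, stood at 13.7, 11.1 and 11.3 RPKM in NC and at 18.2, 14.1 and 16.4 RPKM in OPT. The groups did not overlap, although OPT replicate 2 and NC replicate 1 nearly met. The log2 difference of MFA1 was 0.40 with a 95% interval of 0.11 to 0.69 (limma adjusted p = 0.0603). It passed with library medians set equal (0.0467) and without NC replicate 1 (0.0412). In the other 11 of 13 alternatives MFA1 did not pass (limma adjusted p up to 0.19). MFA2, on chromosome XIV at 352414 to 352530, stood at 9.23, 5.62 and 7.89 RPKM in NC and at 8.93, 10.7 and 7.42 RPKM in OPT. These groups overlapped, and the log2 difference of 0.23, with a 95% interval of -0.22 to 0.68, did not pass (limma adjusted p = 0.431). Estimated reads were 30 to 91 per library for MFA1 and 16 to 47 for MFA2, so counting error alone is large in both.

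BAR1 encodes the protease that a cells secrete to break down alpha-factor, and lies on chromosome IX at 322342 to 324105. Its level was 6.99, 7.99 and 7.26 RPKM in NC and 7.07, 7.01 and 7.52 RPKM in OPT, with the libraries of both strains mixed. The log2 difference was -0.04 with a 95% interval of -0.25 to 0.18 (limma adjusted p = 0.805), and 0.02 with library medians set equal. These levels rest on an estimated 343 to 561 reads per library, and differences smaller than that interval were not detectable. Of the 5 a-specific genes, 4 had a higher mean in OPT and AGA2 alone passed the test on the deposited scale.

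HO encodes the endonuclease that starts the switch of mating type, and it is a haploid-specific gene, expressed in a and alpha cells and repressed in diploids. The gene lies on chromosome IV at 46271 to 48031. It stood at 152, 135 and 105 RPKM in NC replicates 1, 2 and 3 and at 73.8, 70.6 and 70.6 RPKM in OPT replicates 1, 2 and 3. The groups did not overlap, the OPT libraries were almost equal, and NC replicate 3 was the lowest NC library, whereas it was the highest in the 4 alpha-specific genes. HO fell from 130.5 ± 24.0 to 71.7 ± 1.85 RPKM (SD, n = 3), a log2 difference of -0.84 with an SE of 0.13 (limma adjusted p = 0.00853). The difference was -0.99 without NC replicate 3. The mRNA level does not tell whether the allele of this strain encodes an active enzyme.

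**Figure D3:**
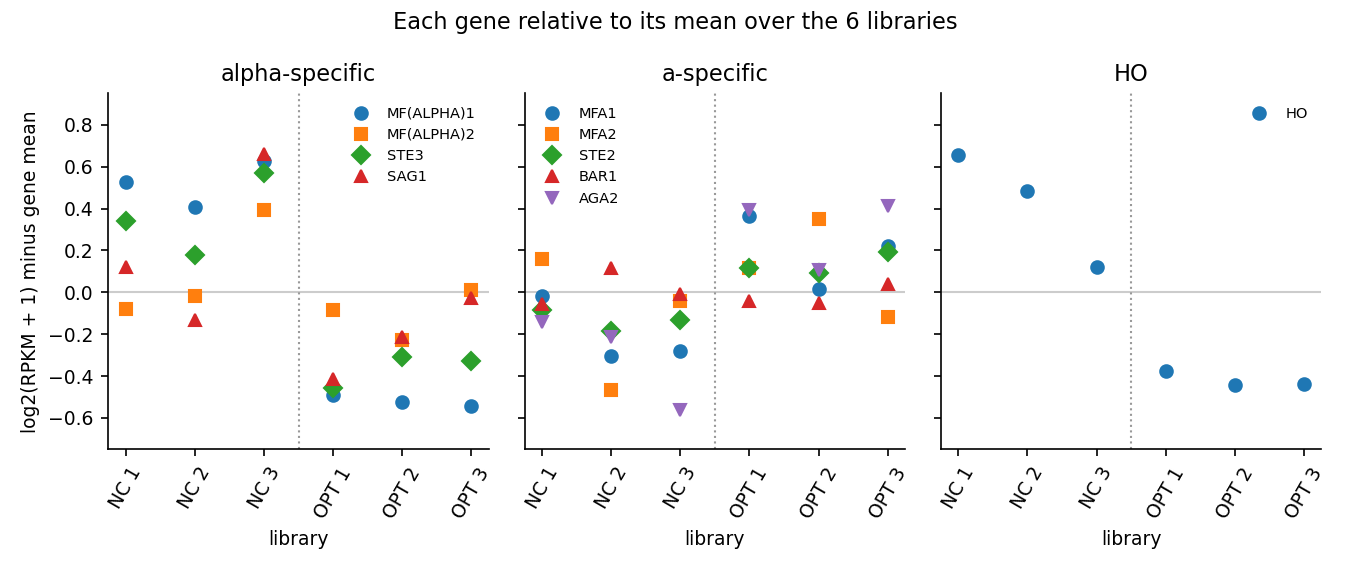
Level of each gene in each library as log2(RPKM + 1) minus the gene's mean over the 6 libraries, in separate panels for alpha-specific genes, a-specific genes and HO; the dotted line parts NC from OPT. NC replicate 3 is the highest library for all 4 alpha-specific genes, the lowest for AGA2 and the lowest NC library for HO.

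**Figure D4:**
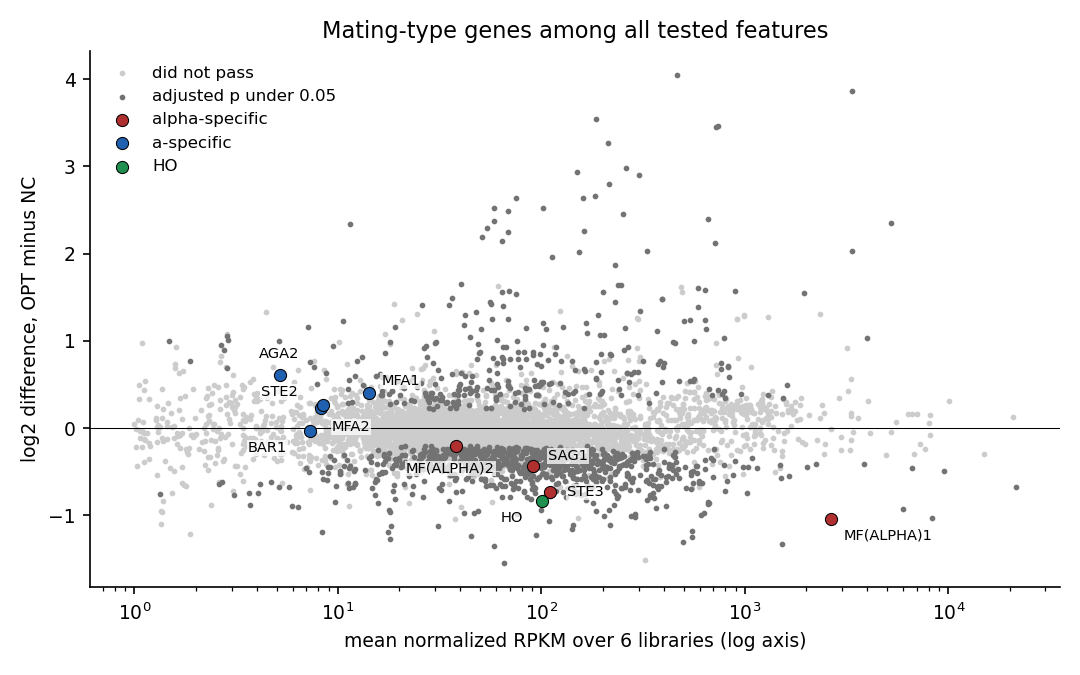
Log2 difference between the strains (OPT minus NC) against mean normalized RPKM over the 6 libraries, on a log axis, for the 5982 tested yeast features; dark grey features passed at an adjusted p under 0.05. MF(ALPHA)1 lies at the far right and low, STE3 and HO in the lower middle, and the a-specific genes at the left, on or above the zero line except for BAR1.

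By Pearson correlation of log2 values over the 6 libraries, the features most like MF(ALPHA)1 were HUT1, which has a role in transport of UDP-galactose into the Golgi (r = 0.998), GUK1, for guanylate kinase (r = 0.997), and JEM1, for a chaperone of the endoplasmic reticulum needed for nuclear fusion during mating (r = 0.997). HUT1 stood at 86.2 to 96.3 RPKM in NC against 56.6 to 57.5 RPKM in OPT. JEM1 stood at 45.1 to 52.15 RPKM in NC and 27.7 to 29.0 RPKM in OPT. These points share the same libraries and mostly the step between the strains, and 383 features had r above 0.95.

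Genes that cut, modify or export the pheromones fell in part. Of 11 tested genes, 4 fell and none rose, with a median log2 difference of -0.17 beside -0.06 for all features. That is 36.4% lower, beside 13.8% of all features. KEX2, the protease that makes the first cuts in the alpha-factor precursor, fell from 51.0 ± 0.86 to 41.4 ± 1.16 RPKM (SD, n = 3; log2 difference -0.29, limma adjusted p = 0.0138). RCE1 and STE14 act after the lipid is attached to a-factor, by removing its terminal residues and methylating the new end. RCE1 fell from 45.7 ± 3.64 to 30.3 ± 1.11 RPKM (-0.58, limma adjusted p = 0.00466) and STE14 from 64.9 ± 2.77 to 52.6 ± 1.43 RPKM (-0.30, 0.0176). RAM1, a subunit of the farnesyltransferase, fell by 0.29 (0.0463), a call that ended in 8 of 13 alternatives. The other enzymes of alpha-factor processing, KEX1 at 56.1 and 57.2 RPKM and STE13 at 31.8 and 29.8 RPKM, did not pass. Without OPT replicate 1 or 2 only 1 gene of this list passed, and 2 passed without OPT replicate 3 or with equal library medians.

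Genes that pheromone induces form the longest list. Of 18 tested, 7 fell (38.9%, beside 13.8% of all features) and none rose, and 16 had a lower mean on the log scale in OPT, with a median of -0.24. FIG1, a membrane protein of mating cells, fell from 14.3 ± 0.804 to 8.48 ± 0.329 RPKM (log2 difference -0.69, limma adjusted p = 0.00292). FUS1, needed for cell fusion, fell from 18.9 ± 1.56 to 12.8 ± 0.487 RPKM (-0.53, 0.00771), and KAR4, a transcription factor for nuclear fusion genes, from 39.8 ± 2.70 to 28.5 ± 0.458 RPKM (-0.47, 0.00627). PRM5 fell from 106 ± 14.2 to 70.2 ± 2.61 RPKM (-0.58, 0.0113). AGA1, the anchor subunit that holds Aga2 on the wall, fell from 22.3 to 16.4 RPKM (-0.41, 0.0282), a call that was absent in 6 of 13 alternatives. PRM10 stood at 28.2 and 31.0 RPKM in NC replicates 1 and 2 but at 109 RPKM in NC replicate 3, and did not pass (0.229); it overlaps another annotated gene and is uncertain. The count was 10 without NC replicate 3 and 3 and 4 without OPT replicates 2 and 3.

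**Figure D5:**
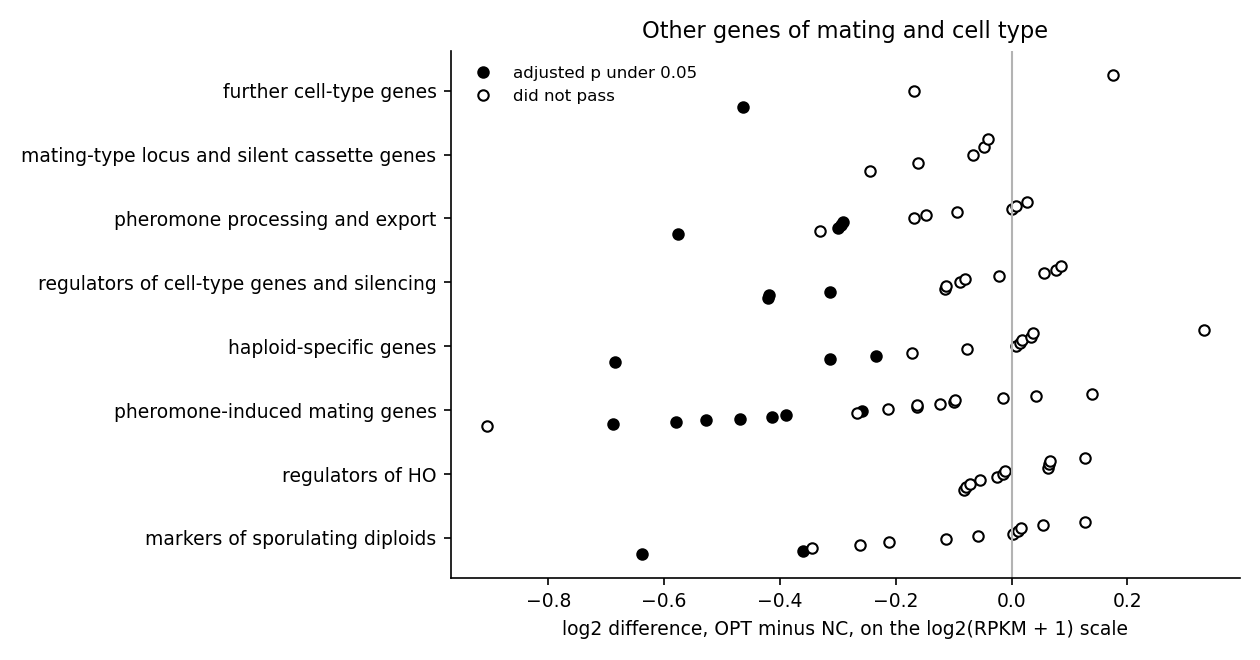
Log2 difference between the strains (OPT minus NC, on the log2(RPKM + 1) scale) of every tested gene in 8 lists of mating and cell-type genes; filled points passed at an adjusted p under 0.05. All filled points lie left of the zero line, and the regulators of HO and the mating-type locus hold none.

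Among haploid-specific genes, of the signal pathway and of other roles, 3 of 11 fell (27.3%, beside 13.8% of all features) and none rose, with a median of 0.01. SST2, which turns the G protein signal off and is itself induced by pheromone, fell from 39.0 ± 4.60 to 23.8 ± 2.41 RPKM (log2 difference -0.69, limma adjusted p = 0.00822). STE4, the G protein beta subunit, fell by 0.23 (0.0455) and STE12 by 0.31 (0.0372), and neither passed once an OPT library was left out or the library medians were set equal. RME1, a repressor of meiosis, rose past the threshold only on other settings, at 0.33 with a filter at 10 RPKM (0.0497), at 0.42 with quantile normalization (0.017), at 0.39 with equal library medians (0.0183) and at 0.42 without NC replicate 2 (0.0223). In the other 9 of 13 alternatives RME1 did not pass. Without OPT replicate 1, 2 or 3 the list held 1 call.

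Regulators of cell-type genes and of silencing gave 3 falls in 11, those of STE12, TEC1 and SIR2, and no rise (27.3% lower, beside 13.8% of all features), with a median of -0.09. The fall of STE12 is also counted among the haploid-specific genes. SIR2, the deacetylase of silent chromatin, fell from 21.7 ± 1.51 to 16.0 ± 0.531 RPKM (log2 difference -0.42, limma adjusted p = 0.0116) and TEC1, a partner of Ste12, from 48.6 ± 6.13 to 35.9 ± 1.08 RPKM (-0.42, 0.026). This list held no call when any OPT library was left out, and 1 call without NC replicate 2. In the mating-type locus and silent cassettes none of 5 tested rows passed with limma, with 2 at an unadjusted p under 0.05, MATALPHA1 and HMLALPHA1 (adjusted p = 0.0539 and 0.104). The MAT and HML rows are of copies whose reads cannot be told apart, so they are not separate measurements. MATALPHA2 and HMRA2 differed by -0.05 and -0.07 as deposited and by 0.04 and 0.03 with quantile normalization.

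For HO, whose promoter is read by SBF, Swi5 and the Swi/Snf complex and blocked by Ash1, none of 11 regulators passed with limma and none had an unadjusted p under 0.05. The most abundant were RPD3 at 131.5 and 125 RPKM and ASH1 at 107 and 109.9 RPKM in NC and OPT. ASH1 stood at 79.0 RPKM in NC replicate 3 against 123 and 118 RPKM in NC replicates 1 and 2. The median of these regulators was -0.01, and with equal library medians SIN3 passed at 0.19 (adjusted p = 0.0402).

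In the remaining list, of a-specific genes outside the 10, YLR040C was misplaced: RefSeq names it AFB1, and its product is an a-factor barrier made by alpha cells. It stood at 233, 231 and 258 RPKM in NC and at 165, 169 and 188 RPKM in OPT, with no overlap and with NC replicate 3 the highest, as in the alpha-specific genes. It fell by 0.46 on the log2 scale (limma adjusted p = 0.0115), a call that ended without OPT replicate 1 or 2 (up to 0.0631). STE6, the a-factor exporter, stood at 18.6, 21.3 and 13.1 RPKM in NC and 15.5, 15.2 and 15.2 RPKM in OPT (adjusted p = 0.505), and passed without NC replicate 3 at -0.36 (0.0144). ASG7, another a-specific gene, was low as well, at 2.86 RPKM in NC and 3.38 RPKM in OPT.

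Markers of sporulating diploids were low to moderate in both strains. The highest were IME4, at 59.3 RPKM in NC and 59.85 RPKM in OPT, and ZIP1, at 28.3 and 28.4 RPKM. IME4 overlaps the annotated antisense RNA gene RME2, and the use of strand is not known, so its level is uncertain. IME1, the master regulator of meiosis, stood at 15.7 ± 1.62 and 13.4 ± 0.72 RPKM (SD, n = 3), SPO11 at 7.95 and 7.31 RPKM and SPO13 at 10.3 and 9.85 RPKM. Of the 12 genes SPS4 and SPS1 fell and none rose, with a median of -0.09, and their 16.7% is near the 13.8% of all features that fell. SPS4 fell from 25.8 ± 0.875 to 16.3 ± 1.51 RPKM (limma adjusted p = 0.00463), and SPS1 by 0.36 (0.0492), a call that ended when any of the 6 libraries was left out. None of the 12 was at 0, and their part in the results above was not tested.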

How the data were processed

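TruSeq libraries were made from total RNA of growing cultures, per the labels' protocols. Per the file headers, the authors deposited normalized RPKM for every gene in each library. The submitters' processing notes name CASAVA 1.8.0, Bowtie, TopHat and build R64, whereas the sources used here give neither the counting, nor the use of strand, nor the normalization. The values of a library add up to 999285 to 999421 RPKM, so a rise of abundant transcripts lowers all others. Coordinates and coding lengths are from RefSeq's R64 annotation, which matched 5992 of 6347 features, and no sequence is printed. After 3 emptied lines, 1 repeated and shifted row was left out.

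Reads behind a value were estimated from low values, which times coding length came in whole multiples of a step. With a tolerance of 0.15 reads this held for 98.8 to 100.0% of the 83 to 118 values used per library, each worth up to 20 reads. The estimates describe depth only.

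The test was limma's (version 3.58.1, R 4.3.3; two-sided, prior variance with a trend, strain as the only term) on log2(RPKM + 1) for features averaging 1 RPKM or more, adjusted by Benjamini-Hochberg over all of them. Both rows of cdt-1 were fitted but not counted. The fit was tested on 10 simulated sets with known changes. It recovered 87.4% of changes of size 1 on the log2 scale and 60.3% of those of size 0.5. Of the calls there, 5.5% were false. Permutation tests used scipy 1.17.1. The limma p-values set each strain difference against the spread between libraries of the same strain. Whether that spread covers differences between transformants is not known. The 10 genes and the lists were chosen with earlier results of these data known. Named genes were all 10, up to 4 called genes per list by size (the 2 most abundant in lists without a call), and the 3 features most like MF(ALPHA)1. Other genes named (MATALPHA1, HMLALPHA1, HMLALPHA2, HMRA1, KEX1, STE13, AGA1, PRM10, RME1, SIN3, STE6, ASG7, IME1, IME4, ZIP1, SPO11, SPO13) were added after their values were seen. The settings tried besides were quantile normalization, equal library medians, a pseudocount of 0.1, a filter at 10 RPKM or none, a common prior variance, arrayWeights and leaving out each library.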

Additional observations from a re-analysis of the deposited data

How the results depend on the processing

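MF(ALPHA)1, STE3 and HO kept their fall and their call in all 13 alternatives, at -1.23 to -0.98, -0.82 to -0.63 and -0.99 to -0.72 on the log2 scale with adjusted p up to 0.0123, 0.0384 and 0.0447. Between 3 and 6 of the 10 genes passed. No called difference of a named gene changed direction. Without 1 library each, 361 to 1956 features passed in all; 0 to 2 genes of the list with STE6, ASG7 and the misplaced AFB1, 1 to 5 of pheromone processing, 0 to 4 regulators, 1 to 4 haploid-specific genes, 3 to 10 pheromone-induced genes and 1 sporulation gene did. With equal library medians the counts were 2 for pheromone processing, 1 for regulators of HO and 1 for sporulation, the last also 1 without a filter and with a filter at 10 RPKM. The mean alpha-specific share was 99.0% in NC and 97.6% in OPT, 87.8 and 80.0% without MF(ALPHA)1, and 97.9% in OPT without AGA2. The MF(ALPHA)1 difference was -1845 RPKM and -1985 to -1708 without 1 library each (exact permutation p = 0.2, the smallest possible there). No paired analysis was possible because the labels give no replicate numbers. Those used here follow the column order of the libraries within each strain. Read numbers limit MFA1, MFA2 and AGA2 most.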
